A study of Schizosaccharomyces pombe with 12 samples.

Results

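The genes described here are the ubiquitin and proteasome genes of Schizosaccharomyces pombe (fission yeast), as far as their standard symbols give them. A gene was taken as a member where its symbol in the probe annotation was rpn, rpt, pre, pup, ubc, ubp, uba, ubi, pub or pof followed by a number, and dss1 was added. This gave 73 of the 2896 genes measured, read by 74 probe sets. They are 7 subunits of the proteasome core particle, 6 ATPases and 12 other subunits of its regulatory particle, 3 ubiquitin precursor genes, 1 activating enzyme (E1), 11 conjugating enzymes (E2), 3 HECT ligases, 14 F-box proteins and 16 genes of the ubp group. The name pattern also fits 13 genes of the reference table that are not among them. Of these, 8 had no probe set named for them here and 5 stood under another name or on a shared probe set, such as ptr3, the ubiquitin-activating enzyme. So the core particle is covered by 7 genes and its full set of subunits is not described.

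Ubiquitin is a small protein that cells attach to other proteins in a relay. An E1 enzyme activates it, an E2 enzyme carries it, and a ligase such as a HECT protein or an SCF complex places it on the target, which the F-box protein of SCF selects. Chains of ubiquitin send many targets to the proteasome, where regulatory particles bind, unfold and feed them into a barrel-shaped core that cuts them, while deubiquitinating enzymes remove ubiquitin. In fission yeast, as in other eukaryotes, this system removes cell-cycle proteins such as cyclins and securin, and proteins damaged by heat.

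Total RNA was hybridised to 12 GeneChip arrays in 4 groups of 3. The mis4-367 groups carried a thermosensitive allele of mis4, the gene of the cohesin loader, and the mis4+ groups carried its wild-type allele. All 4 groups were h- cells with the plasmid ura4+-pREP2-res1, so that mis4-367 and mis4+ cells alike were arrested in G1, through the overproduced fragment of Res1 that titrates Cdc10. For each allele 1 group was harvested after 2 h at 37 °C and 1 at 25 °C before that shift, and the study asks which genes depend on cohesin loading. Each allele was grown as 3 independent inoculates. The strain background beyond these alleles, and the share of cells that had arrested, are not given in the labels.

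Values are given as log2 of the deposited array signal (log2 intensity), 1 value per array, and a change is a difference between means of 3 arrays. A gene is said to have risen, fallen or changed where limma's adjusted p was under 0.05, with p-values adjusted over all 2896 genes. Signals of different probe sets were not compared with each other. In bulk samples, fewer cells of a type and less RNA per cell cannot be told apart.

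All 73 genes lay above the background level in every group, which was 3.42 on the log2 scale. Over the 12 arrays the median intensity of all genes ran from 394 to 433. Each array was set against the average of its fellow replicates, itself left out, and 1 array stood apart. For replicate 3 of mis4+ at 37 °C the SD of this difference over genes was 0.202 on the log2 scale. For the other 11 arrays it was 0.065 to 0.134. On replicate 3 the ubiquitin and proteasome genes lay 0.11 above that average by the median, and all genes 0.10. The main counts and most of the named changes that use it are therefore also given without it. Summed intensities of the 5 genes of h- cells were 4563 to 4930 in mis4-367 and 4733 to 5094 in mis4+ at 37 °C, and 5530 to 6216 in mis4-367 and 5807 to 6848 in mis4+ at 25 °C. Of these 5, mfm1 and mfm3, which encode mating pheromone, were lower in mis4-367 at 37 °C, and mfm3 also at 25 °C. The summed intensities of the 2 genes of P cells stayed between 124 and 165 over all arrays. Summed intensities of 11 genes of mitosis and septation were 3337 to 3559 in mis4-367 and 3859 to 4370 in mis4+ at 37 °C, where 5 of the 11 were lower in mis4-367. At 25 °C they were 3833 to 4005 in mis4-367 and 4229 to 4388 in mis4+. Their part in the results below was not tested.

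At 37 °C few of these genes differed between mis4-367 and mis4+ cells. Of the 73, 1 was higher and 4 were lower in mis4-367 (6.85%), while limma called 7.18% of all genes, 1.73% higher and 5.46% lower. The share of called members was thus near that of all genes. Without replicate 3 of mis4+ it was 3 members, all lower (4.11%), where 3.56% of all genes were called. The gene that was higher is dss1, a small subunit of the regulatory particle, and the 4 that were lower are the F-box genes pof5, pof14 and pof13 and the deubiquitinase gene ubp8. All 5 changes were under 1.5-fold. The median change was -0.07 over the members and -0.05 over all genes on the log2 scale.

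The Dss1 protein belongs to the lid of the regulatory particle, and it also binds partners outside the proteasome. Its gene had log2 intensities of 7.64, 8.10 and 7.92 in mis4-367 cells at 37 °C, against 7.46, 7.57 and 7.16 in mis4+ cells. The groups did not overlap, and replicate 3 of mis4+ was the lowest of the 6 arrays. The change was 0.49 ± 0.12 (SE), adjusted p = 0.0392 (limma). Without that replicate it was 0.37, and the adjusted p was 0.0961, so the call was lost. The adjusted p also rose above 0.05 when replicate 1 of mis4+ (0.0515), replicate 2 of mis4-367 (0.145) or replicate 3 of mis4-367 (0.0846) was left out. At 25 °C dss1 had 8.08, 7.82 and 7.84 in mis4-367 cells, against 7.73, 7.77 and 7.85 in mis4+ cells, and these ranges overlapped.

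The other 24 proteasome subunits did not pass the test at 37 °C. Their changes ran from -0.20 to 0.16 on the log2 scale, and their 95% confidence intervals from -0.35 to 0.31. These bounds are the lowest and highest ends over the 24 intervals, so differences in mis4-367 beyond them are outside every interval. Smaller ones did not pass after adjustment over all genes. At an unadjusted p under 0.05, limma listed 11 of the 25 subunits (44.0%), dss1 included, against 29.4% of all genes. The 6 ATPases of the regulatory particle ring, which unfold the target, all had a negative estimate, with a median of -0.11, and 4 of the 6 had an unadjusted p under 0.05. Of all genes 65.2% had a negative estimate, and after re-centring arrays on the gene median the median of the 6 was -0.07. In mis4+ the log2 intensity of rpt4 was 11.55 in replicate 3 beside 11.22 and 11.27 in replicates 1 and 2. Without replicate 3 the median of the 6 was -0.08.

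F-box proteins hold 3 of the 4 genes that were lower. These are 3 of the 14 F-box genes (21.4%), where 5.46% of all genes were lower. After re-centring, under quantile normalization over the S. pombe genes, or without replicate 3 of mis4+, 2 were lower. The median of the 14 was -0.11, or -0.04 under quantile normalization. The F-box gene pof5 had 8.65, 8.56 and 8.54 in mis4-367 cells at 37 °C, against 8.90, 8.87 and 9.04 in mis4+ cells, a change of -0.35 ± 0.05 (SE), adjusted p = 0.00517 (limma). The 2 groups stood clear of each other, and the change was -0.30 (adjusted p = 0.00855) without replicate 3 of mis4+. At 25 °C pof5 had 8.90, 8.85 and 8.89 in mis4-367 cells and 8.93, 8.93 and 8.91 in mis4+ cells, so the gap between the strains was there smaller than 0.1.

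Pof14 is an F-box protein linked to the control of ergosterol synthesis in fission yeast. Its gene had 7.55, 7.63 and 7.53 in mis4-367 cells at 37 °C, against 7.77, 7.88 and 7.93 in mis4+ cells, and the change was -0.29 ± 0.05 (SE), adjusted p = 0.0125 (limma). Without replicate 3 of mis4+ it was -0.26 (adjusted p = 0.0234). The groups did not overlap at 25 °C either, with 7.72, 7.79 and 7.82 in mis4-367 cells and 7.92, 7.90 and 7.89 in mis4+ cells, but that difference of -0.13 did not pass (adjusted p = 0.364).

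The third F-box gene, pof13, was lower in mis4-367 at both temperatures. At 37 °C it had 7.71, 7.69 and 7.74 in mis4-367 cells, against 7.82, 8.02 and 7.95 in mis4+ cells, a change of -0.21 ± 0.06 (SE), adjusted p = 0.0428 (limma). At 25 °C it had 6.38, 6.49 and 6.50 in mis4-367 cells, against 6.79, 6.79 and 6.74 in mis4+ cells, a change of -0.32 ± 0.06 (SE), adjusted p = 0.0237 (limma). The groups were separate at each temperature, and both calls were close to the threshold. At 37 °C the call was lost in 9 of 13 alternative fits, among them the one without replicate 3 of mis4+ (-0.20, adjusted p = 0.0838).

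Ubp8 is the deubiquitinase of the SAGA coactivator complex, which removes ubiquitin from histone H2B. Its gene had 8.19, 8.14 and 8.28 in mis4-367 cells at 37 °C, against 8.43, 8.38 and 8.63 in mis4+ cells, a change of -0.27 ± 0.06 (SE), adjusted p = 0.0313 (limma). The groups did not overlap, and without replicate 3 of mis4+ the change was -0.20 (adjusted p = 0.0464). The 25 °C arrays were also apart, with 7.78, 7.70 and 7.77 in mis4-367 cells and 7.91, 7.97 and 7.93 in mis4+ cells, but the difference of -0.18 did not pass (adjusted p = 0.258).

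**Figure D1:**
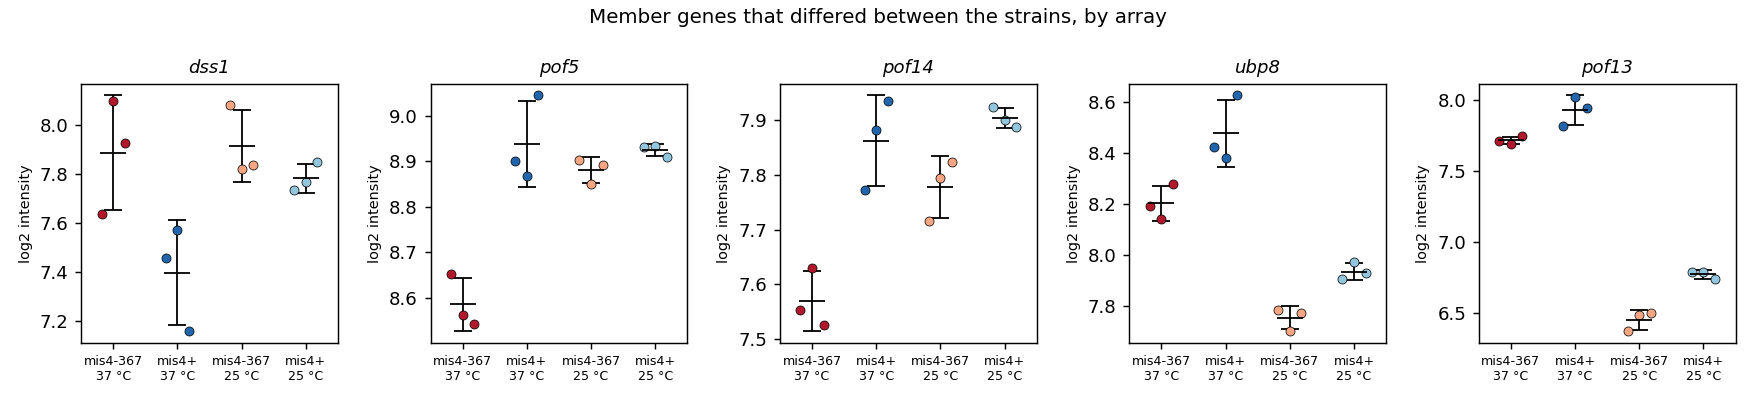
Log2 intensity of dss1, pof5, pof14, ubp8 and pof13, 1 panel per gene, with 1 point per array and a bar at the mean of the 3 arrays of a group, with error bars of 1 SD; the y axes differ between panels. At 37 °C dss1 lies higher and the other 4 lower in mis4-367 than in mis4+, and pof13 and ubp8 are higher at 37 °C than at 25 °C in both strains.

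At 25 °C, before the shift, pof13 was the only member called between the strains (1 lower, 1.37%), where limma called 0.622% of all genes, 18 of them, all lower in mis4-367. At an unadjusted p under 0.05 limma listed 11 of the 73 members (15.1%) and 11.4% of all genes. The members' median difference was -0.02, and that of all genes -0.03. Among the 25 proteasome subunits none passed limma's test and 0 had an unadjusted p under 0.05, with estimates from -0.07 to 0.13. The 14 F-box genes had a median difference of -0.13, or -0.05 under quantile normalization over the S. pombe genes, and 5 of them (35.7%) had an unadjusted p under 0.05, against the 11.4% of all genes. The pof13 call was lost when arrays were re-centred on the gene median (adjusted p = 0.0504) or quantile-normalized over the S. pombe genes (0.51), and in 5 of the 6 fits that left out 1 array (0.0736 to 0.16).

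**Figure D2:**
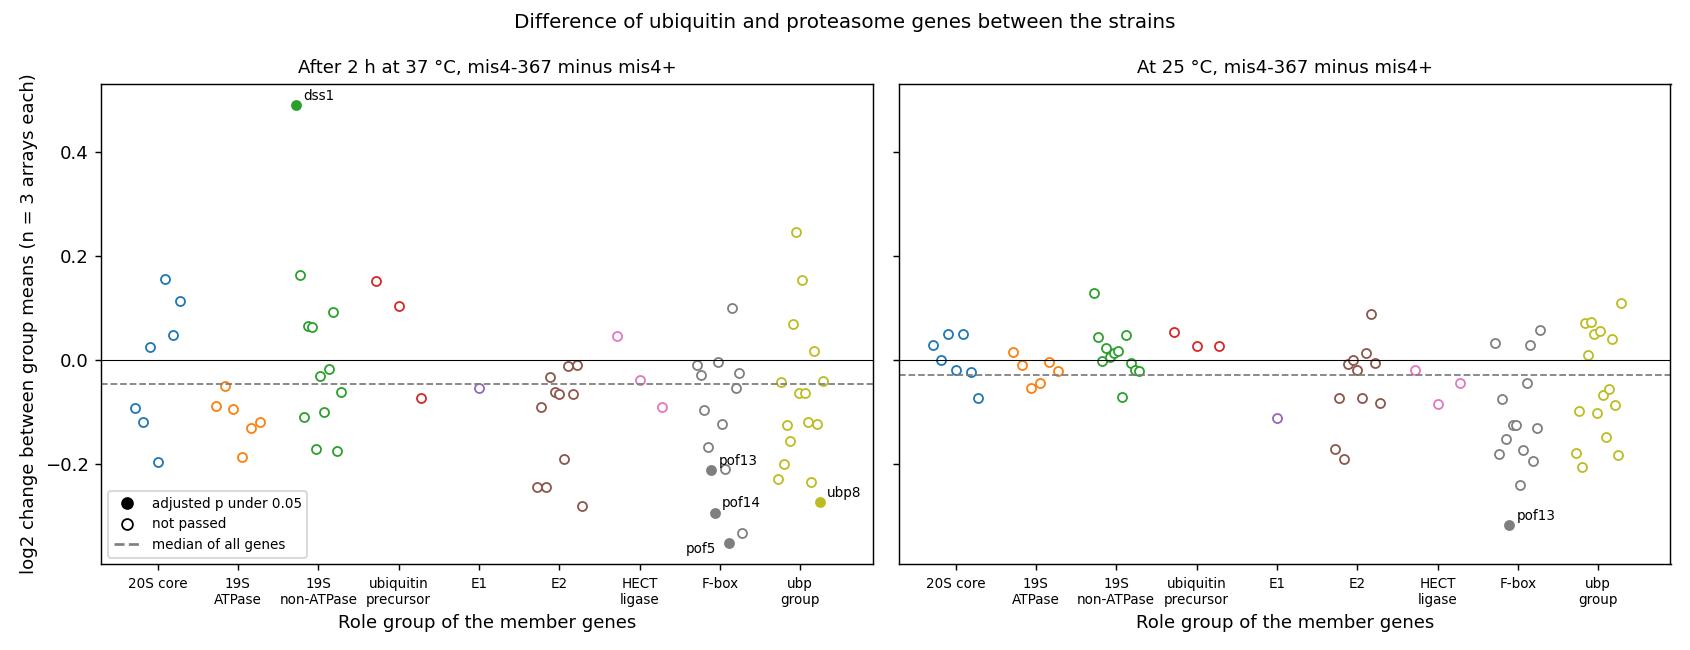
Log2 change in mis4-367 relative to mis4+ at 37 °C (left) and 25 °C (right) for the 73 genes by role group; filled points have an adjusted p under 0.05 and the dashed line is the median of all genes. At 37 °C 5 points are filled, dss1 above and 4 below zero, and at 25 °C pof13 alone is filled.

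The 2 h at 37 °C changed many more of these genes, in both strains. In mis4-367 cells 23 rose and 12 fell (47.9% of the members), where limma called 56.4% of all genes, 33.4% higher and 23.0% lower. In mis4+ cells 30 rose and 12 fell (57.5%), where it called 55.3% of all genes, 33.4% higher and 21.9% lower. Without replicate 3 of mis4+ at 37 °C 30 members rose and 14 fell in mis4+, where 59.9% of all genes were called. Of the 42 members 36 kept their call, 6 lost it (dss1, pof4, pof12, ubc8, ubi3 and ubp15) and 8 others gained one, with none reversed. The members moved about as often as genes in general, and their median changes were 0.05 in mis4-367 and 0.09 in mis4+, against 0.04 over all genes in each strain. Changes past 1.5-fold were seen for 7 members in mis4-367 and 6 in mis4+. Heat shock genes moved with the temperature: the summed intensity of 10 of them was 42111 to 43055 at 37 °C and 35880 to 37842 at 25 °C in mis4-367, and 41775 to 43358 at 37 °C and 35891 to 36991 at 25 °C in mis4+. Of these 10, 6 rose and 3 fell in each strain.

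Subunits of the proteasome moved little and in both directions. Of 25, 4 rose and 3 fell in mis4-367, and 7 rose and 4 fell in mis4+, with median changes of -0.002 in mis4-367 and 0.04 in mis4+. Without replicate 3 of mis4+ at 37 °C the counts in mis4+ were 8 and 6. With all arrays limma called 56.4% of all genes in mis4-367 and 55.3% in mis4+. The share of called subunits was smaller than that of all genes in each strain. In the core particle, pup1, a catalytic beta subunit in Saccharomyces cerevisiae, rose by 0.46 in mis4-367 and 0.35 in mis4+ (0.40 without replicate 3). The core gene pre3 had 11.05, 11.04 and 10.94 at 37 °C and 10.91, 10.96 and 10.96 at 25 °C in mis4-367, a change of 0.07 that did not pass (adjusted p = 0.291). The mis4+ arrays read 11.05, 11.11 and 11.22 at 37 °C and 10.94, 10.95 and 10.94 at 25 °C, a rise of 0.19 (adjusted p = 0.00798), or 0.14 without replicate 3. The gene pre10, an alpha subunit in Saccharomyces cerevisiae, had 9.67, 9.61 and 9.54 at 37 °C and 9.86, 9.79 and 9.78 at 25 °C in mis4-367, a lower level, with a change of -0.20 (adjusted p = 0.00788). For pre10 in mis4+ the values were 9.65, 9.64 and 9.80 at 37 °C and 9.75, 9.84 and 9.76 at 25 °C, and the groups overlapped. Its change in mis4+ was -0.08 and did not pass, but passed without replicate 3 (-0.14, adjusted p = 0.0298).

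One array set the size of the fall of pup3, another beta subunit gene, in mis4+. It had 10.38, 10.39 and 9.96 at 37 °C, against 10.54, 10.55 and 10.52 at 25 °C, a change of -0.29 ± 0.09 (SE), adjusted p = 0.0151 (limma). Replicate 3 at 37 °C was the lowest of the 3 by a wide gap, and without it the change was -0.15 (adjusted p = 0.00258). In mis4-367 pup3 had 10.38, 10.36 and 10.34 at 37 °C and 10.48, 10.46 and 10.44 at 25 °C, a change of -0.10 that did not pass (adjusted p = 0.348).

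The ATPase genes of the regulatory particle, whose products form a ring on the core, had changes of at most 0.22. In mis4-367 none of the 6 passed limma's test, 1 had an unadjusted p under 0.05, and the changes lay between -0.12 and 0.08. In mis4+ rpt4 rose by 0.22 and rpt6 by 0.18. Without replicate 3 these rises were 0.12 for rpt4 (adjusted p = 0.00666) and 0.12 for rpt6 (adjusted p = 0.0148), and rpt2 also passed (0.14). The gene rpt1 had 11.36, 11.36 and 11.33 at 37 °C and 11.33, 11.36 and 11.36 at 25 °C in mis4-367. Its values in mis4+ were 11.32, 11.38 and 11.62 at 37 °C and 11.33, 11.29 and 11.38 at 25 °C, with replicate 3 at 37 °C standing above all others. For rpt5 they were 9.91, 9.96 and 9.95 at 37 °C and 10.08, 10.05 and 10.03 at 25 °C in mis4-367, and 10.01, 10.01 and 10.19 at 37 °C and 10.07, 10.06 and 10.04 at 25 °C in mis4+.

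Among the 12 non-ATPase subunits, 3 rose and 2 fell in mis4-367, and 3 rose and 3 fell in mis4+. Calls were no more frequent than over all genes, of which limma called 56.4% in mis4-367 and 55.3% in mis4+. The 3 subunits that rose were the same in both strains. They are rpn2, a scaffold of the base, and rpn6 and rpn12, subunits of the lid. The gene rpn2 had 10.94, 10.97 and 10.98 at 37 °C and 10.75, 10.78 and 10.76 at 25 °C in mis4-367, and 10.97, 10.99 and 11.03 at 37 °C and 10.80, 10.76 and 10.68 at 25 °C in mis4+, with no overlap between temperatures. Its rise was 0.20 in mis4-367 and 0.25 in mis4+, and that of rpn6 was 0.32 in mis4-367 and 0.38 in mis4+. Without replicate 3 at 37 °C the mis4+ rises were 0.23 for rpn2 and 0.30 for rpn6.

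Lid subunit gene rpn8 fell in both strains. It had 9.95, 9.85 and 9.94 at 37 °C, against 10.24, 10.26 and 10.26 at 25 °C, in mis4-367, a change of -0.34 ± 0.07 (SE), adjusted p = 0.00167 (limma). In mis4+ it had 10.01, 9.96 and 10.29 at 37 °C, against 10.22, 10.32 and 10.27 at 25 °C, and the change of -0.19 passed narrowly (adjusted p = 0.0473), with replicate 3 at 37 °C among the 25 °C values. Without it the change was -0.29 (adjusted p = 0.000216). The rpn11 gene, for the deubiquitinase of the lid, fell in mis4-367 (change of -0.19), and its change of -0.08 in mis4+ did not pass, though it did without replicate 3 (-0.15, adjusted p = 0.0313). For rpn10, a ubiquitin receptor, the change in mis4+ was -0.28 (adjusted p = 0.0044), or -0.19 without replicate 3 (adjusted p = 0.00275), and the change of -0.16 in mis4-367 did not pass. The dss1 gene fell in mis4+, with a change of -0.39 ± 0.12 (SE, limma adjusted p = 0.0183), and its change of -0.02 in mis4-367 did not pass (adjusted p = 0.883). Without replicate 3 at 37 °C the mis4+ change was -0.27 (adjusted p = 0.0723).

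The 3 ubiquitin precursor genes had changes of at most 0.20. Both ubi1 and ubi3 encode ubiquitin fused to a ribosomal protein, and ubi4 encodes polyubiquitin, which in Saccharomyces cerevisiae is a heat-induced gene. The probe sets of ubi3 and ubi4 are marked as shared with other sequences, so their signal may not be theirs alone. In mis4-367 the changes were 0.03 for ubi1, -0.04 for ubi3 and 0.10 for ubi4, none passed limma's test, and 0 had an unadjusted p under 0.05. In mis4+ ubi4 rose by 0.20, with 11.96, 12.07 and 12.20 at 37 °C and 11.84, 11.90 and 11.87 at 25 °C, and ubi3 fell, with a change of -0.12. Without replicate 3 at 37 °C the rise of ubi4 was 0.14 and the call of ubi3 was lost (-0.08, adjusted p = 0.0649). The mis4-367 arrays of ubi4 read 11.998, 11.97 and 12.04 at 37 °C and 11.92, 11.85 and 11.93 at 25 °C, also without overlap. For ubi3 the arrays read 13.03, 13.05 and 13.08 at 37 °C and 13.11, 13.09 and 13.10 at 25 °C in mis4-367, and 13.02, 12.96 and 12.88 at 37 °C and 13.04, 13.07 and 13.10 at 25 °C in mis4+. The ubi1 arrays read 11.89, 12.01 and 11.97 at 37 °C and 11.93, 11.93 and 11.92 at 25 °C in mis4-367, and 11.85, 11.83 and 11.73 at 37 °C and 11.82, 11.86 and 11.94 at 25 °C in mis4+.

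The conjugating enzymes moved mostly upward: 7 of 11 rose in mis4-367 (63.6%) and 9 of 11 in mis4+ (81.8%), and none fell. Of all genes 33.4% rose in each strain, and 23.0% fell in mis4-367 and 21.9% in mis4+. The median changes of the E2 genes were 0.22 in mis4-367 and 0.29 in mis4+, against 0.04 over all genes in each strain. Without replicate 3 at 37 °C, 8 rose and 1 fell in mis4+. Under quantile normalization over the S. pombe genes 1 of the 11 was called lower in each strain. Those that rose in both were ubc1, ubc6, ubc7, ubc11, ubc13, ubc14 and ubc15. Among them, the products of ubc6 and ubc7 act in the destruction of misfolded proteins of the endoplasmic reticulum, as known from Saccharomyces cerevisiae. Ubc11 is the E2 of the anaphase-promoting complex, and Ubc13 builds chains used in the tolerance of DNA damage.

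The ubc6 gene had 8.89, 8.95 and 8.80 at 37 °C, against 7.84, 7.86 and 7.91 at 25 °C, in mis4-367, a change of 1.01 ± 0.07 (SE), adjusted p = 3.13e-07 (limma). The mis4+ cells had 8.79, 8.92 and 9.12 at 37 °C, against 7.82, 7.79 and 7.73 at 25 °C, a change of 1.17 ± 0.07 (SE), adjusted p = 1.06e-07 (limma), or 1.08 without replicate 3 at 37 °C. Every 37 °C array stood well above every 25 °C array. The ubc14 gene had 9.16, 9.16 and 9.24 at 37 °C and 8.57, 8.59 and 8.57 at 25 °C in mis4-367, and 9.24, 9.11 and 9.39 at 37 °C and 8.56, 8.51 and 8.65 at 25 °C in mis4+. It rose by 0.61 in mis4-367 and 0.67 in mis4+ (limma adjusted p = 7.98e-06 in mis4-367 and 4.22e-06 in mis4+; 0.60 in mis4+ without replicate 3 at 37 °C).

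Neither ubc4 nor ubc12 passed in either strain with all arrays. The broadly acting ubc4 had 12.50, 12.49 and 12.55 at 37 °C and 12.47, 12.45 and 12.51 at 25 °C in mis4-367, and 12.48, 12.52 and 12.57 at 37 °C and 12.47, 12.47 and 12.44 at 25 °C in mis4+, with changes of 0.04 in mis4-367 and 0.07 in mis4+. The NEDD8-conjugating enzyme gene ubc12 had 6.12, 6.14 and 6.22 at 37 °C and 6.30, 6.30 and 6.41 at 25 °C in mis4-367. Its mis4+ arrays read 6.42, 6.23 and 6.56 at 37 °C and 6.52, 6.59 and 6.47 at 25 °C, and its changes were -0.18 in mis4-367 and -0.12 in mis4+. Without replicate 3 the mis4+ change of ubc12 passed (-0.20, adjusted p = 0.0192). NEDD8 is a ubiquitin-like protein that activates cullin ligases, and uba3, the 1 E1 gene here, encodes the catalytic part of its activating enzyme. The uba3 gene rose by 0.36 in mis4-367, with 8.38, 8.37 and 8.52 at 37 °C and 8.03, 8.06 and 8.09 at 25 °C. In mis4+ it rose by 0.30, with 8.65, 8.51 and 8.27 at 37 °C and 8.14, 8.21 and 8.16 at 25 °C, and replicate 3 at 37 °C was the nearest to the 25 °C arrays. Without it the rise was 0.41.

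Among the ligases, pub1 and pub3 of the HECT family fell in both strains, and pub2 did not pass in either. The Pub1 protein controls the degradation of Cdc25 and the turnover of amino acid transporters. Its gene had 8.93, 9.03 and 9.004 at 37 °C and 9.19, 9.24 and 9.11 at 25 °C in mis4-367, and 8.91, 8.93 and 8.99 at 37 °C and 9.27, 9.19 and 9.14 at 25 °C in mis4+. The changes were -0.19 in mis4-367 and -0.26 in mis4+, or -0.28 in mis4+ without replicate 3, small but with no overlap between temperatures. The pub3 gene had 8.34, 8.38 and 8.37 at 37 °C, against 8.79, 8.73 and 8.77 at 25 °C, in mis4-367, a change of -0.40 ± 0.08 (SE), adjusted p = 0.00145 (limma). The mis4+ cells had 8.41, 8.27 and 8.68 at 37 °C, against 8.90, 8.75 and 8.76 at 25 °C, a change of -0.35 ± 0.08 (SE), adjusted p = 0.00346 (limma). Replicate 3 at 37 °C was the array closest to the 25 °C values, and without it the change was -0.46. For pub2 the values were 7.21, 7.34 and 7.31 at 37 °C and 7.21, 7.18 and 7.12 at 25 °C in mis4-367, and 7.31, 7.24 and 7.43 at 37 °C and 7.25, 7.22 and 7.30 at 25 °C in mis4+.

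F-box genes split by direction. In mis4-367 6 of 14 rose and 3 fell (64.3%, against 56.4% of all genes). In mis4+ 7 rose and 2 fell (64.3%, against 55.3% of all genes). The median changes were 0.14 in mis4-367 and 0.20 in mis4+. Without replicate 3 at 37 °C, 6 rose and 1 fell in mis4+. Under quantile normalization over the S. pombe genes 5 rose and 4 fell in mis4-367, and 5 rose and 3 fell in mis4+, with median changes of 0.07 in mis4-367 and 0.09 in mis4+. The genes pof3, pof7, pof10, pof11, pof12 and pof13 rose in both strains, though pof12 did not pass in mis4+ without replicate 3 (adjusted p = 0.0527). Pof3 guards genome integrity through the turnover of the histone gene activator Ams2. The gene pof13 had the largest rise of the 73 in mis4-367, by 1.26 ± 0.06 (SE), adjusted p = 5.34e-09 (limma), with the arrays given above for the strain comparisons. In mis4+ it rose by 1.16 ± 0.06 (SE), adjusted p = 1.34e-08 (limma), or 1.15 without replicate 3 at 37 °C, and no array of one temperature came near those of the other.

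The gene pof11 had 7.95, 7.91 and 8.01 at 37 °C and 7.25, 7.27 and 7.35 at 25 °C in mis4-367, and 8.02, 8.08 and 8.07 at 37 °C and 7.37, 7.41 and 7.33 at 25 °C in mis4+. It rose by 0.67 in mis4-367 and 0.69 in mis4+ (limma adjusted p = 1.49e-07 in mis4-367 and 1.36e-07 in mis4+), or 0.68 in mis4+ without replicate 3 at 37 °C. For pof10 the values were 7.91, 7.97 and 7.97 at 37 °C and 7.32, 7.34 and 7.21 at 25 °C in mis4-367, and 8.01, 7.98 and 7.96 at 37 °C and 7.43, 7.39 and 7.59 at 25 °C in mis4+, with rises of 0.66 in mis4-367 and 0.51 in mis4+ (0.52 without replicate 3). Both genes were separated by temperature on every array.

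In mis4-367, pof4, pof5 and pof14 fell, and pof5 and pof14 were also lower there than in mis4+ at 37 °C. The change of pof5 was -0.30 in mis4-367 (limma adjusted p = 0.000404) and 0.01 in mis4+ (adjusted p = 0.853). For pof14 the change was -0.21 in mis4-367 (adjusted p = 0.00441), and the change of -0.04 in mis4+ did not pass (adjusted p = 0.524). The pof4 gene, whose product resembles elongin A, had 6.21, 6.58 and 6.23 at 37 °C and 6.45, 6.70 and 6.81 at 25 °C in mis4-367, and 6.62, 6.52 and 6.50 at 37 °C and 6.91, 6.73 and 6.84 at 25 °C in mis4+. Its ranges overlapped in mis4-367, and its change of -0.32 ± 0.11 (SE, adjusted p = 0.0243) lost the call in 6 alternative fits. The F-box gene pof9 had 5.71, 5.42 and 5.68 at 37 °C and 5.52, 5.29 and 5.53 at 25 °C in mis4-367. Its mis4+ arrays read 5.81, 5.71 and 6.29 at 37 °C and 5.37, 5.49 and 5.31 at 25 °C, where replicate 3 at 37 °C stood highest. The rise in mis4+ was 0.55, or 0.37 without that array.

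Within the ubp group 5 of 16 genes rose in each strain, while 4 fell in mis4-367 and 3 in mis4+. Over all genes limma called 56.4% in mis4-367 and 55.3% in mis4+, with 33.4% higher in each strain. The ubp genes were thus called about as often as genes in general. All but ubp13 are named for deubiquitinating enzymes, and ubp13 is listed in the reference table as pan2, a subunit of the poly(A) nuclease. The 5 that rose, in both strains, were ubp1, ubp4, ubp8, ubp10 and ubp16. The Ubp4 protein acts at endosomes. Its gene had 9.39, 9.42 and 9.57 at 37 °C and 8.83, 8.74 and 8.77 at 25 °C in mis4-367, and 9.66, 9.49 and 9.59 at 37 °C and 8.82, 8.97 and 8.996 at 25 °C in mis4+. The rises were 0.68 in mis4-367 and 0.65 in mis4+ (limma adjusted p = 3.22e-06 in mis4-367 and 5.43e-06 in mis4+), or 0.65 in mis4+ without replicate 3 at 37 °C. The ubp8 gene, although lower in mis4-367 than in mis4+ at 37 °C, rose by 0.45 in mis4-367 and 0.54 in mis4+ (0.47 without replicate 3). For ubp10 the values were 7.48, 7.62 and 7.56 at 37 °C and 6.97, 7.02 and 7.01 at 25 °C in mis4-367, and 7.46, 7.52 and 7.81 at 37 °C and 7.05, 7.13 and 7.12 at 25 °C in mis4+, again with every 37 °C array above the 25 °C arrays. The rises were 0.55 in mis4-367 and 0.50 in mis4+ (0.39 without replicate 3).

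The largest fall of the 73 genes was that of ubp11. It had 8.30, 8.42 and 8.59 at 37 °C, against 9.71, 9.71 and 9.89 at 25 °C, in mis4-367, a change of -1.33 ± 0.08 (SE), adjusted p = 6.89e-08 (limma). In mis4+ it had 8.74, 8.64 and 8.52 at 37 °C, against 10.06, 9.93 and 9.93 at 25 °C, a change of -1.34 ± 0.08 (SE), adjusted p = 8.03e-08 (limma), or -1.29 without replicate 3 at 37 °C. Both strains thus had less than the 25 °C signal by more than 1 log2 unit on every array. The ubp3 gene had 9.75, 9.77 and 9.82 at 37 °C and 10.16, 10.15 and 10.19 at 25 °C in mis4-367, and 9.89, 9.78 and 9.85 at 37 °C and 10.26, 10.21 and 10.22 at 25 °C in mis4+. It fell, with changes of -0.39 in mis4-367 and -0.39 in mis4+, or -0.40 in mis4+ without replicate 3 at 37 °C. The gene ubp6, whose product is the deubiquitinase that docks on the proteasome, had changes of 0.04 in mis4-367 and 0.07 in mis4+ that did not pass, though the one in mis4+ did without replicate 3 (0.11, adjusted p = 0.0402).

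**Figure D3:**
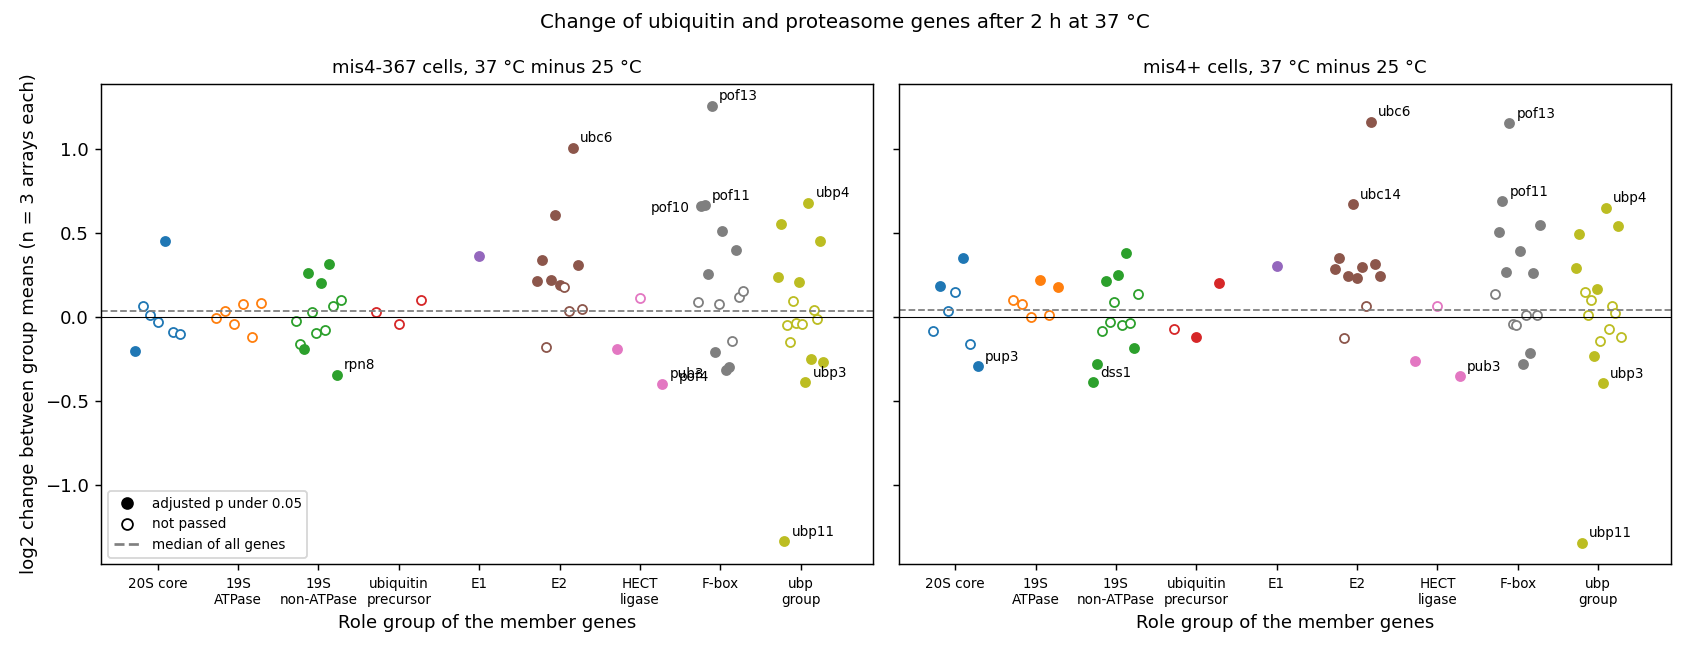
Log2 change at 37 °C relative to 25 °C in mis4-367 (left) and mis4+ (right) for the 73 genes by role group; filled points have an adjusted p under 0.05 and the dashed line is the median of all genes. Most E2 genes lie above zero, the proteasome groups stay within 0.5 of zero, and pof13, ubc6 and ubp11 lie farthest out in both strains.

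**Figure D4:**
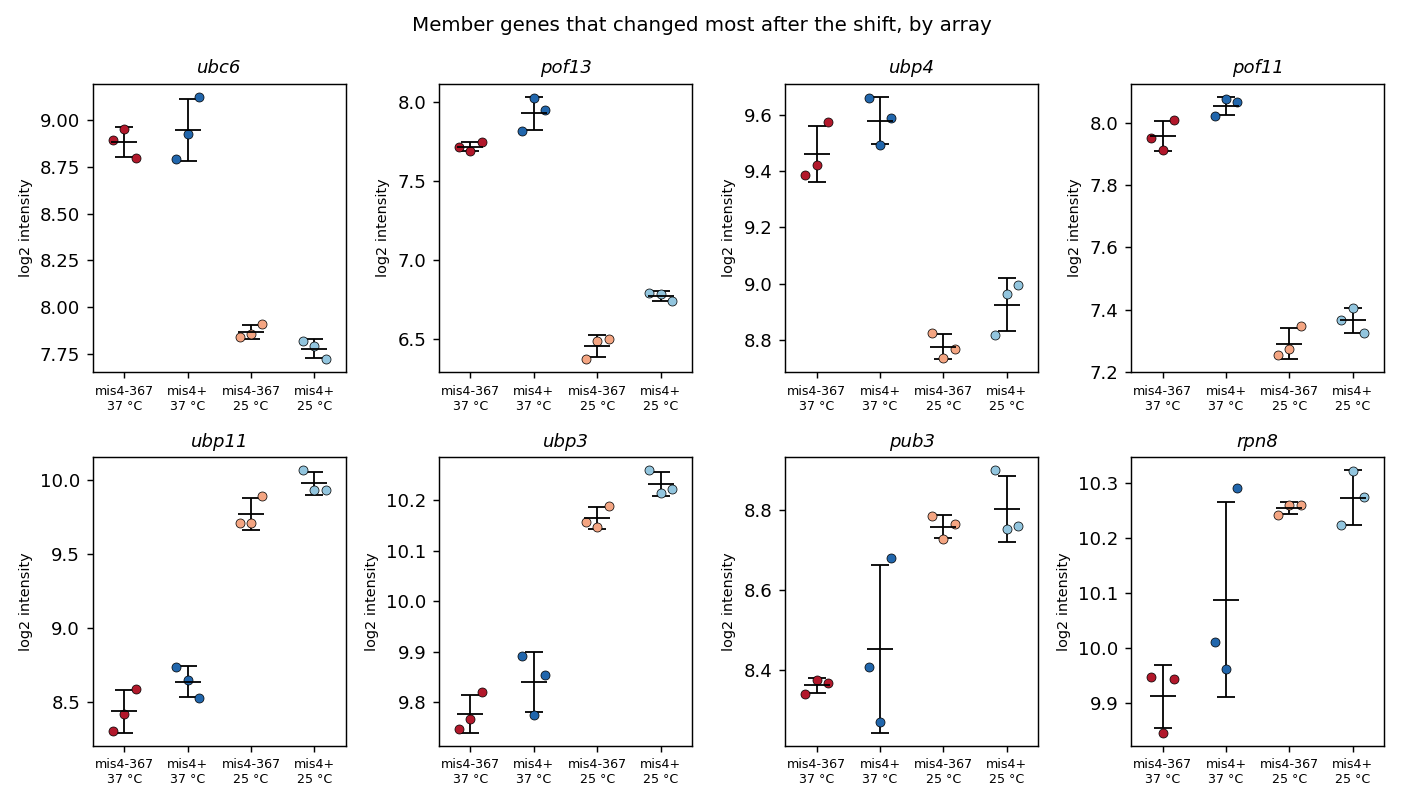
Log2 intensity of ubc6, pof13, ubp4, pof11, ubp11, ubp3, pub3 and rpn8, 1 panel per gene, with 1 point per array, a bar at the mean of 3 arrays and error bars of 1 SD; the y axes differ between panels. The means of the first 4 genes are higher and those of the last 4 lower at 37 °C than at 25 °C in both strains, and replicate 3 of mis4+ at 37 °C is the highest point of its group for pub3 and rpn8.

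The shifts of the 2 strains named largely the same members. They share no array, but both came from the same fit, which uses a common estimate of each gene's spread. Of the 35 called in mis4-367 and the 42 called in mis4+, 29 were called in both, all 29 in the same direction, 23 higher and 6 lower. They make up 82.9% of the mis4-367 list and 69.0% of the mis4+ list, where over all genes these shares were 82.7% of the mis4-367 list and 84.3% of the mis4+ list. The genes lower in both were rpn8, pub1, pub3, pof4, ubp3 and ubp11, of which pof4 lost its call in mis4+ without replicate 3 (adjusted p = 0.0973). Of the proteasome subunits, 5 were called in both, namely pup1, rpn2, rpn6, rpn12 and rpn8. Across the 73 members, which share their probe sets and the joint normalization between the strains, the changes had a Pearson's r of 0.94 and a Spearman's rho of 0.90. The r over all genes was 0.96. Members are not independent replicates, so no p is given.

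**Figure D5:**
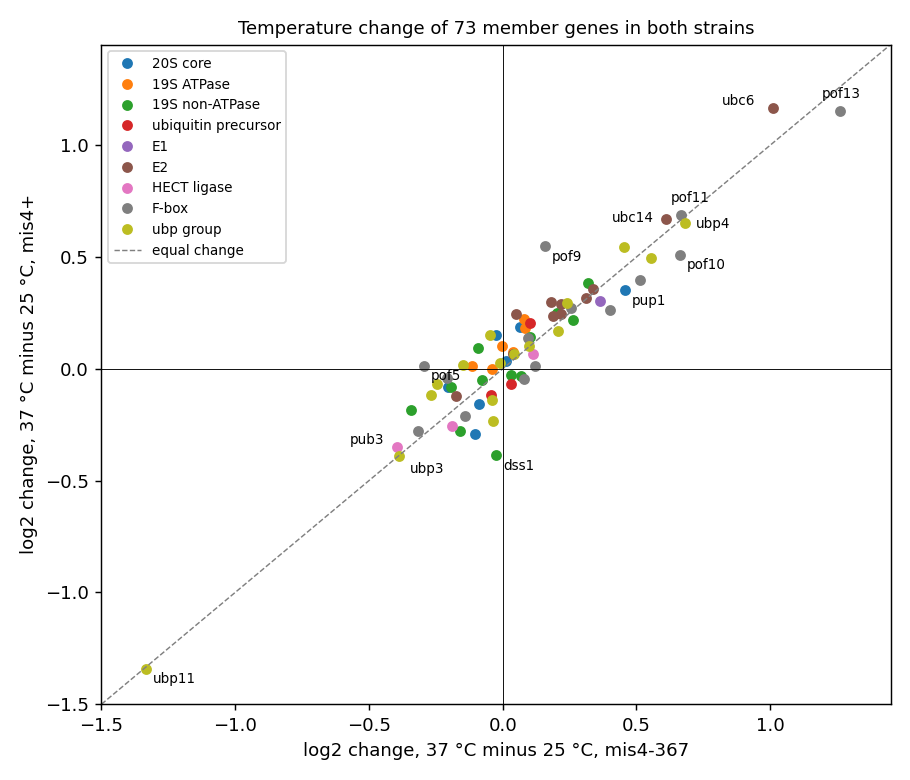
Log2 change at 37 °C relative to 25 °C in mis4-367 (x axis) and in mis4+ (y axis), 1 point per gene for the 73 genes, coloured by role group. The points lie along the line of equal change, with ubp11 at the low end near -1.3 in both strains and pof13 and ubc6 at the high end.

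Whether the response to 37 °C differed between mis4-367 and mis4+ was tested as the difference of the 2 changes. Limma called none of the 73 and none of the 2896 genes (0.0%), and the smallest adjusted p among the members was 0.721, for pof5. At an unadjusted p under 0.05 it listed 2 members (2.74%) and 141 genes (4.87%). Without replicate 3 of mis4+ at 37 °C none passed either, and 3 members had an unadjusted p under 0.05. The 2 members with all arrays were pof5, with a difference of -0.31 ± 0.07 (SE), and pof14, with -0.17 ± 0.07. Without that replicate the differences were -0.25 for pof5 and -0.13 for pof14. These use the same 37 °C arrays as the strain comparison above. With array weights limma called 2 genes, of which 0 were members. For the proteasome subunits other than dss1, the 95% intervals of the difference ran from -0.41 to 0.46, and for dss1 the difference was 0.36 ± 0.17 (adjusted p = 0.824), or 0.24 without that replicate. The 6 members called in mis4-367 alone and the 13 called in mis4+ alone are therefore not shown to respond differently.

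Other genes of the ubiquitin and proteasome pathway, which do not follow the naming pattern, were counted for comparison: 80 of 123 listed symbols were measured. At 37 °C 3 of the 80 were higher and 4 lower in mis4-367 than in mis4+ (8.75%, against 7.18% of all genes). Without replicate 3 of mis4+ the counts were again 3 and 4, with 1 call lost (sst2) and 1 gained. Those with the smallest adjusted p were slp1 and apc2, which were lower, and fub2 and pmt3, which were higher. Slp1 is the activator that turns the anaphase-promoting complex on in mitosis, and it changed by -0.50 ± 0.06 (SE), adjusted p = 0.00288 (limma), or -0.47 without replicate 3. It is also 1 of the 11 genes of mitosis and septation counted above, of which 5 were lower. The complex's cullin subunit gene apc2 changed by -0.33 (adjusted p = 0.00487), or -0.34 without replicate 3. The gene pmt3 encodes SUMO, a ubiquitin-like protein, and fub2 encodes part of its activating enzyme. The change was 0.32 for pmt3 (adjusted p = 0.00939) and 0.37 for fub2 (adjusted p = 0.00718), or 0.27 for pmt3 and 0.32 for fub2 without replicate 3. The deubiquitinase gene sst2, whose product acts at endosomes, changed by -0.31 (adjusted p = 0.0269), and did not pass without replicate 3 (-0.26, adjusted p = 0.0562).

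At 25 °C limma called none of the 80 between the strains, with 10 at an unadjusted p under 0.05. The temperature change called 32 higher and 16 lower in mis4-367 (60.0%, against 56.4% of all genes), and 30 higher and 9 lower in mis4+ (48.8%, against 55.3%). Without replicate 3 at 37 °C 31 were higher and 16 lower in mis4+. The gene ubx3, for a partner of the Cdc48 unfoldase, had the smallest adjusted p in both strains and rose by 1.06 in mis4-367 and 1.02 in mis4+ (1.01 without replicate 3). The gene cut23, for a subunit of the anaphase-promoting complex, rose by 0.47 in mis4-367 and 0.50 in mis4+ (0.49 without replicate 3). Further genes of smallest adjusted p in mis4-367 were the HECT ligase gene mug30 (0.88), pmt3 (0.54) and skp1 (0.47), the SCF adaptor that binds F-box proteins. In mis4+ they were apc10 (0.93) and apc11 (0.74) of the anaphase-promoting complex and the SUMO ligase gene nse2 (0.53). Without replicate 3 these were 0.84 for apc10, 0.65 for apc11 and 0.52 for nse2. The difference between the strains' responses was called for none of the 80 by limma, with 9 at an unadjusted p under 0.05.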

How the data were processed

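Total RNA of G1-arrested fission yeast was measured on 12 arrays, 3 in each of 4 groups, assigned by genotype and temperature in the labels. Per the submitters' processing notes the authors used RMA, which corrects background, quantile-normalizes arrays and summarises probe sets, so broad shifts are flattened; the RMA version was not given in the sources used here. The values the authors deposited are an intensity on a linear scale, and log2 was taken without a pseudocount. Arrays have no read depth, and their number limits precision.

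Genes were named through the platform's probe annotation and a RefSeq table (assembly ASM294v3), used for names and gene order. Of 10928 probe sets, 2914 named 1 gene. A gene with several probe sets took the brightest, which left 2896 genes. Background was the 95th percentile of 2601 probe sets of another yeast.

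All comparisons came from 1 limma fit of 4 group means (limma 3.58.1, R 4.3.3; eBayes defaults), two-sided, with Benjamini-Hochberg adjustment over 2896 genes. The fit was tested on simulated data. Per-array values are given for members called between strains, the 5 that rose and the 5 that fell most in each shift, and the brightest and dimmest of each role group; other pathway genes are the 5 of smallest adjusted p. The members, role groups and lists were chosen with earlier results of these data known. Alternatives were other array scalings, the mean of probe sets, a background filter, the compared groups alone, array weights, a replicate block and leaving out each array. The inoculates are independent, per the series' design text.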

Additional observations from a re-analysis of the deposited data

How the results depend on the processing

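Of 358 recomputed values for 26 named results, 323 kept their call, 35 lost it and 0 changed direction. The mean of probe sets and the background filter could not change the estimates of these genes, which each have 1 probe set and lie above background. Those fits are counted among the kept calls all the same. Between strains at 37 °C the 5 members called became 0 in a fit of the compared groups alone (0.345% of all genes) and 12 (3 higher, 9 lower; 16.4%, as of all genes) with array weights. Leaving out 1 array gave 2 to 15 members, 0 to 2 higher and 2 to 13 lower, with 15 (20.5%, all genes 19.5%) without replicate 2 and 3 without replicate 3 of mis4+ at 37 °C. Array weights gave replicate 3 a weight of 0.0921. The split over all genes was 50 higher and 158 lower, against 88 and 88 under quantile normalization over the S. pombe genes and 80 and 108 after re-centring arrays, and members were then 1 higher and 3 lower. The adjusted p of ubp8 was 0.19 in the compared groups alone and 0.0601 and 0.118 without replicates 1 and 2 of mis4-367, and pof5 (0.109) and pof14 (0.135) lost their calls in the compared groups alone. At 25 °C the 1 member became 0 under re-centring, 0 under quantile normalization, 4 in the compared groups alone (5.48%, all genes 5.32%) and 14 with array weights (19.2%, all genes 17.1%; all lower), and 0 to 1 when 1 array was left out. In the shift of mis4-367 leaving out 1 array gave 30 to 35 members called. In that of mis4+ it gave 34 to 44, 27 to 32 higher and 7 to 14 lower, with 7 lower without replicate 3 at 25 °C, and quantile normalization gave 10 proteasome subunits higher and 3 lower. Where no cause is named, the cause was not tested. The precision is limited by 3 arrays a group.

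The replicate numbers were not taken to pair the samples, since the labels do not tie a number to an inoculate and deviations of same-numbered arrays of a strain at 37 °C and 25 °C correlated at 0.07, 0.06 and 0.09 in mis4-367 and at -0.07, 0.03 and -0.09 in mis4+. With the replicate number as a block the members called were 5 and 1 between strains at 37 °C and 25 °C, 35 and 40 in the shifts of mis4-367 and mis4+, and 0 for their difference. With strain and number together as the block they were 35, 40 and 0.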

Other observations

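Some members lie near each other in the genome, by the order of protein-coding genes in the reference table. The lid gene rpn3 and the E2 gene ubc4 are adjacent, pub1 and ubi1 have 1 gene between them, and so have rpn8 and ubp16. Whether neighbours shift together was not tested. In both strains rpn8 fell while ubp16 rose, by 0.21 in mis4-367 and 0.17 in mis4+. The pub1 gene fell in both strains, and the changes of ubi1, 0.03 in mis4-367 and -0.07 in mis4+, did not pass. Neither rpn3 (-0.08 in mis4-367 and -0.05 in mis4+) nor ubc4 passed.

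A second, dimmer probe set reads ubi3. Its mean log2 intensity was 11.88 in mis4-367 and 11.69 in mis4+ at 37 °C, and 11.94 in mis4-367 and 11.90 in mis4+ at 25 °C. As on the brighter probe set, the lowest of the 4 means was that of mis4+ at 37 °C. The 2 genes for the ubiquitin receptor Rpn13, rpn1301 and rpn1302, had shifts of 0.03 and -0.09 in mis4-367 and -0.03 and 0.09 in mis4+, and none of these passed.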
